A study of Mus musculus with 95 samples.

Results

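The genes described here encode the nuclear subunits and assembly factors of mitochondrial complex I, the NADH:ubiquinone oxidoreductase. The rule takes every gene symbol in the deposited tables made of Nduf, a letter a, b, c, s or v and a number, or of Ndufaf and a number, and uses no measured value. This gave 41 of 25407 genes. They comprised 7 core subunits of the matrix arm, 9 accessory subunits of the matrix arm, 9 of the proximal and 10 of the distal membrane arm, Ndufa4 with its paralogue Ndufa4l2, and 4 assembly factors. To determine how diabetes and pioglitazone, an agonist of the nuclear receptor PPARγ given in type 2 diabetes, alter gene expression in nerve and kidney, RNA-Seq was performed on kidney cortex, glomeruli isolated from the kidney (Glom), dorsal root ganglia (DRG), which hold the cell bodies of sensory neurons, and the sciatic nerve (SCN), which holds their axons. All mice were males of the strain BKS.Cg-m +/+ Leprdb/J, 16 weeks of age. The db/+ group carried 1 mutant copy of the leptin receptor gene and received no drug. The db/+ PIO group received pioglitazone in the chow for 11 weeks, at 15 mg per kg of mouse. The db/db group carried the mutation on both copies and received no drug, and the db/db PIO group carried it on both copies and received the drug. The mutation is carried in every cell, so obesity and diabetes cannot be told apart in db/db mice. Each group held 6 libraries in each tissue, except DRG db/db with 5, and there were 95 libraries in all.

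Complex I takes electrons from NADH and passes them to ubiquinone while pumping protons across the inner mitochondrial membrane. Its matrix arm holds the flavin and the iron-sulfur clusters, its membrane arm holds the pumps, which are encoded by mitochondrial DNA, and the accessory subunits surround and stabilise both arms. Assembly factors help to put the arms together and are absent from the finished enzyme. Peripheral axons, sensory neurons and the tubule cells of the kidney cortex all depend heavily on oxidative phosphorylation. Transcription of the nuclear genes of the respiratory chain is known to respond to the coactivators PGC-1α and PGC-1β, acting with factors such as NRF1, GABPA and ESRRA.

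Most entries of these genes were listed at 0. Values were FPKM, which are fragment counts scaled to transcript length and to library size, so that levels of different genes can be compared. Of 3895 entries of the 41 genes, 947 (24.3%) were above 0. By tissue the share was 17.9% (cortex), 24.9% (DRG), 25.6% (glomeruli) or 28.9% (SCN), against 35.5% over the 4055 genes of the series whose usual level was at least 10 FPKM. A 0 was taken as a missing value, since genes that every cell uses were also listed at 0 in many libraries. The 0s were not spread evenly over tissues. In every DRG library 5 of 9 sensory neuron markers were at 0, against 0 of 9 in SCN. For proximal tubule markers it was 5 of 11 in cortex and 0 of 11 in glomeruli, and for podocyte markers 3 of 5 in glomeruli and 1 of 5 in cortex. For Schwann cell markers it was 3 of 6 in SCN and 4 of 6 in DRG, against 1 of 6 in glomeruli and 1 of 6 in cortex. For skeletal muscle markers it was 1 of 10 in SCN and in DRG, and 4 of 10 in glomeruli and in cortex. A dependence of the 0s on the level of a gene was not tested, and the comparisons of groups assume that there is none. The genes Ndufa11, Ndufa5, Ndufa7, Ndufb2, Ndufb8, Ndufs7 and Ndufs8 were listed at 0 in every library. The remaining 34 genes had a value in at least 1 library, 11 of them in fewer than 10 libraries and 8 in at least 50. Cortex gave a value for 23 genes, glomeruli for 26, DRG for 27 and SCN for 31.

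**Figure D1:**
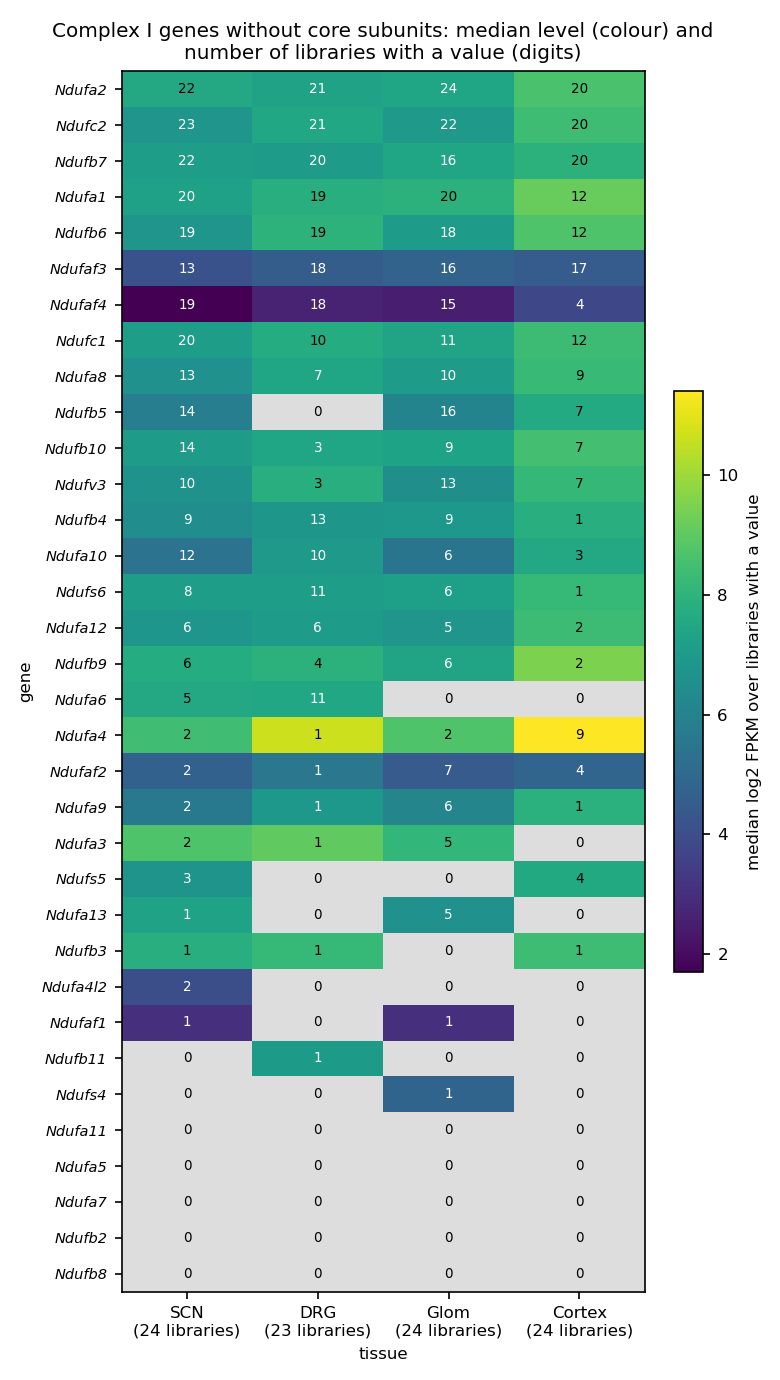
Heat map of the median log2 FPKM of the complex I genes other than the core subunits (rows) over the libraries with a value in each tissue (columns), with the number of those libraries printed in each cell. Most cells rest on few libraries or on none, and the cortex column holds the highest level of every gene plotted that has a value there, except Ndufaf2 and Ndufaf3.

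The core subunits, which carry the redox centres, were among the genes with the fewest values, and none of the 7 had enough values for a test. In SCN, Ndufs3, which lies near the ubiquinone site, had 5 values between 60.7 and 123 FPKM, the highest in db/db PIO replicate 1. Ndufs1, which binds iron-sulfur clusters, had 2 values in SCN (25.4 and 36.1 FPKM), and Ndufv1, which binds NADH and the flavin, had 1 (49.1 FPKM). Ndufs3 had 3 values in DRG, from 89.9 to 106 FPKM, Ndufs1 had 68.6 and 67.3 FPKM, and the iron-sulfur subunit Ndufv2 had 76.0 FPKM in 1 library. Glomeruli gave 71.5 and 87.5 FPKM for Ndufs3 and 34.2 FPKM for Ndufs1, and cortex gave 274 FPKM for Ndufv1 in db/db PIO replicate 3. No difference between groups can be read from so few values.

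Ndufa4, once counted as a complex I subunit and now known as part of cytochrome c oxidase, had the highest level of the 34 genes. It had values in 9 of 24 cortex libraries, and in cortex db/+ they ranged from 2187 to 3315 FPKM (mean 2665 ± 449 SD, n = 5). The db/+ PIO values were 2069 and 2901 FPKM, the only db/db value was 5074 FPKM in replicate 6, and the only db/db PIO value was 1928 FPKM. The db/db value stood above all others, in a library that stood apart in other genes as well (below). Elsewhere Ndufa4 had values of 272 and 419 FPKM in SCN, 1618 FPKM in DRG, and 455 and 403 FPKM in glomeruli. Its paralogue Ndufa4l2, which is induced in low oxygen, had only 2 values, 18.5 and 14.04 FPKM, both in SCN db/+.

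Of the assembly factors, Ndufaf4, which acts with Ndufaf3 in building the part of the matrix arm that binds ubiquinone, was between 2.64 and 4.56 FPKM in 19 SCN libraries, between 4.97 and 7.30 FPKM in 18 DRG libraries, between 4.34 and 6.73 FPKM in 15 glomerular libraries and between 12.5 and 15.0 FPKM in 4 cortex libraries. Ndufaf3 had values in 13 SCN, 18 DRG, 16 glomerular and 17 cortex libraries. Its range of 15.2 to 23.6 FPKM in SCN overlapped with 18.9 to 32.9 FPKM in DRG, 23.7 to 32.7 FPKM in glomeruli and 18.9 to 38.5 FPKM in cortex. Ndufaf2, a factor of the last assembly steps, had 7 values in glomeruli (18.1 to 27.7 FPKM), 4 in cortex (28.8 to 34.1 FPKM), 2 in SCN (23.7 and 28.2 FPKM) and 1 in DRG (46.7 FPKM). Ndufaf1, a factor for the membrane arm, was at 8.17 FPKM in 1 SCN library and at 8.28 FPKM in 1 glomerular library.

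The promoters of the 6 genes called in 1 or both of the SCN comparisons of db/db PIO described below are shown, so that the starts of these genes can be searched for motifs of the factors named above. Each sequence is the 250 bases before the RefSeq transcription start (build GRCm38.p6), 5′ to 3′ on the strand of the gene, with a match to the NRF1 motif in capitals.
Ndufb6 (chr4:40279422-40279671, minus strand): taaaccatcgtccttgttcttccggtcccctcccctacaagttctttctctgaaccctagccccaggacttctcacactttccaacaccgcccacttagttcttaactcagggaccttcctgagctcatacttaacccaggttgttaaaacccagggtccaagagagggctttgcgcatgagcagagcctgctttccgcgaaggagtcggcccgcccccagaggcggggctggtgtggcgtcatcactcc
Ndufc2 (chr7:97399753-97400002, plus strand): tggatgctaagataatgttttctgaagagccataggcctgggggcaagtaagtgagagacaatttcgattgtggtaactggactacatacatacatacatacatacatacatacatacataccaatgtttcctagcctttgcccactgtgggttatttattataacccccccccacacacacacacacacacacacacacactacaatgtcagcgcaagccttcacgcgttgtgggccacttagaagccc
Ndufb10 (chr17:24724424-24724673, minus strand): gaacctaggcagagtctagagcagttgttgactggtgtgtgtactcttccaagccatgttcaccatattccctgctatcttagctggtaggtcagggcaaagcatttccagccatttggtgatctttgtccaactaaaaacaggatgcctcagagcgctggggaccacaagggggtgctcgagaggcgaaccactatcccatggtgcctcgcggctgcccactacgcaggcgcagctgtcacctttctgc
Ndufb5 (chr3:32736813-32737062, plus strand): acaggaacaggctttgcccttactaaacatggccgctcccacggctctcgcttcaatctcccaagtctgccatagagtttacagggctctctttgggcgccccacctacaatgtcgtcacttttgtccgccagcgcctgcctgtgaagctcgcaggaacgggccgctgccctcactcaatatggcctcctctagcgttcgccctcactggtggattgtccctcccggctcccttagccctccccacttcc
Ndufaf4 (chr4:24897833-24898082, plus strand): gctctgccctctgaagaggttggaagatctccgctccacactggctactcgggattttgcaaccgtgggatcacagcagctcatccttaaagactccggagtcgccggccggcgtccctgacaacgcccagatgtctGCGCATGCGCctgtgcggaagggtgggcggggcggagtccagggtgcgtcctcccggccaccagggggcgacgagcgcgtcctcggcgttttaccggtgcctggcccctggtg
Ndufa8 (chr2:36049339-36049588, minus strand): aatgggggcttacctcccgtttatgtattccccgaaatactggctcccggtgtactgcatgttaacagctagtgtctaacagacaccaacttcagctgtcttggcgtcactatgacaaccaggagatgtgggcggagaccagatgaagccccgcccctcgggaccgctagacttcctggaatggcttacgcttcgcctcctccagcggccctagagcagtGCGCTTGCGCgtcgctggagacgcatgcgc

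A promoter was given for 36 of the 41 genes. The NRF1 motif (GCGC, any base, then TGCGC), searched on both strands in 250 bases, matched in 7 of these 36 (Ndufa11, Ndufa5, Ndufa8, Ndufaf4, Ndufb4, Ndufs5 and Ndufs6) and in 3.74% of all 32851 promoters. In Ndufaf4 the match lay 113 to 104 bases before the start, and in Ndufa8 it lay 30 to 21 bases before it. The ESRRA motif TCAAGGTCA, the GABPA motif CCGGAAGT and the PPAR/RXR motif (AGGTCA repeated after any 1 base) matched in none of the 36, and in 0.387%, 2.88% and 0.0335% of all promoters, and no matches of different motifs could overlap in the 6 shown, since the NRF1 motif alone matched there. A match is a description of the letters and not of binding. The base composition of the 6 promoters ranged from 45.2% G and C with 4 CG pairs in Ndufc2 to 66.4% with 23 CG pairs in Ndufaf4, and the median of all promoters was 52.4% with 6 CG pairs. In mm9, the build of the deposited values, the 6 protein-coding genes span chr4:40217624-40226454 (Ndufb6), chr7:104548513-104556312 (Ndufc2), chr17:24859005-24861423 (Ndufb10), chr3:32635912-32650488 (Ndufb5), chr4:24825230-24832148 (Ndufaf4) and chr2:35891846-35904926 (Ndufa8).

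Some libraries stood apart, among them in the level of short transcripts, and many complex I transcripts are short. All 41 were matched to GENCODE transcripts, whose median length was 763 bases against 1967.5 bases over all matched genes, and 21 of the 41 lay under 800 bases. For each library, the offset of short against long transcripts was therefore calculated as the median log2 deviation of genes under 800 bases minus that of genes over 3000 bases, each deviation taken from the median of the gene in its tissue, with the complex I genes left out. The offset lay beyond 0.3 in 7 libraries, which were DRG db/+ PIO replicates 1 and 2 (0.58 and 0.45), DRG db/db replicate 3 (0.37), cortex db/+ replicates 1 and 5 (0.37 and 0.46), cortex db/+ PIO replicate 6 (0.56) and cortex db/db replicate 6 (1.96). The last of these had an FPKM sum of 601310, the highest of all libraries. In SCN the offset stayed between -0.19 and 0.25, and in glomeruli it was 0.01 to 0.28 in db/db against -0.13 to 0.06 in db/+ and -0.22 to 0.04 in db/db PIO. Short genes other than those of complex I stayed in the offset. Where the offset differs between groups, a fit with it as a covariate can also remove a true difference between them. Glom db/+ replicate 2 held tubule transcripts, with a sum of proximal tubule markers of 4812 FPKM against a median of 219 FPKM in its group. Marker sums add only the markers with a value, which were 4 of 11 in this library and 6 to 10 in the others of its group. In SCN db/db, the proximal tubule sum was 868 and 819 FPKM in replicates 2 and 6, against 0.03 to 46.3 FPKM in the others. The Schwann cell sum was 11234 to 12664 FPKM in replicates 2, 5 and 6 of that group, against 28294 to 35115 FPKM in the others. The part of these sums in the SCN comparisons was not tested. Transcripts of the labelled tissues were present, such as the myelin gene Mbp in SCN, the neurofilament genes Nefl and Nefm in DRG and the podocyte gene Podxl in glomeruli, but the defining markers Pmp22, Mag and Egr2 were at 0 in every SCN library, Prph, Nefh and Scn10a in every DRG library, Nphs1 and Wt1 in every glomerular library and Lrp2 and Slc5a2 in every cortex library. All p-values measure only the spread between these libraries, part of which may be technical.

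**Figure D2:**
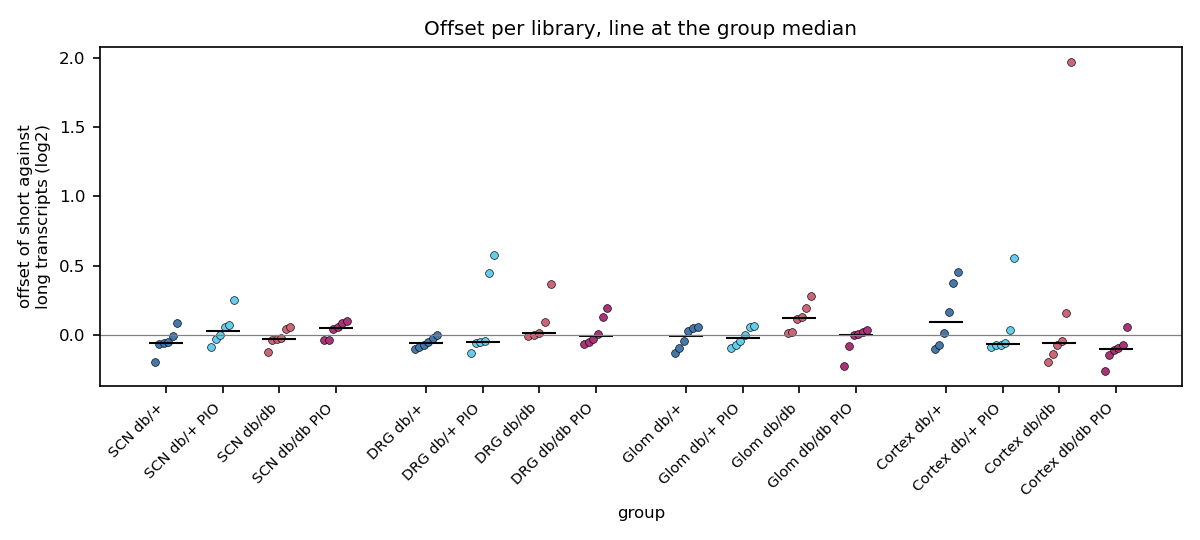
Offset of short against long transcripts (log2, vertical axis) in each library, by tissue and group, with each point a library and the line at the group median. Most libraries lie near 0, cortex db/db replicate 6 lies at 1.96, and the glomerular db/db libraries lie above 0.

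Levels in db/+ mice were higher in DRG than in SCN for 6 of 10 complex I genes tested, and higher in cortex than in glomeruli for 6 of 7. Ndufa10, an accessory subunit related to nucleoside kinases, differed most between the nerve tissues, with 34.8, 40.9, 41.7, 38.1 and 37.3 FPKM in SCN db/+ against 122, 125, 117, 134 and 127 FPKM in DRG db/+. Every DRG value was above every SCN value, and the difference was 1.67 ± 0.08 (SE) on the log2(FPKM + 1) scale (adjusted p = 1.43e-15, limma). Ndufb6, an accessory subunit of the distal membrane arm, was at 95.4 to 112 FPKM in SCN db/+ (n = 5) and at 245 to 264 FPKM in DRG db/+ (n = 4). This was a difference of 1.27 ± 0.16. The others were Ndufaf4 (0.85), the membrane arm subunits Ndufc2 (0.78) and Ndufc1 (0.56), and Ndufa1 (0.67), a small membrane-spanning subunit encoded on the X chromosome, while Ndufa2, Ndufb7, Ndufaf3 and Ndufs6 differed by -0.01 to 0.26 and did not pass. Between the kidney tissues, Ndufb6 was higher in cortex by 1.67 ± 0.16, Ndufa1 by 1.49, Ndufc2 by 1.48, the matrix arm subunit Ndufa2 by 1.37, Ndufa8 by 1.36 and Ndufb7 by 0.64, the last with values of 202 to 313 FPKM in cortex db/+ and 146 to 193 FPKM in glomerular db/+. Ndufaf3 was lower in cortex by -0.22 ± 0.13, which did not pass (adjusted p = 0.130, limma). Calls were frequent in these comparisons, at 76.4% of all genes between SCN and DRG (28.9% as higher in DRG) and 74.9% between glomeruli and cortex (23.8% as higher in cortex), and the median difference of all genes was -0.23 and -0.32. Relative to those medians, the complex I medians of 0.62 and 1.37 lay on the other side of 0. FPKM values are relative to the library total, and rescaling by medians of ratios shifted the all-gene medians to 0.25 and 0.11 and put all 10 and all 7 genes above 0. With each 0 entered as a value, no complex I gene passed in either comparison.

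In SCN, complex I genes were higher in db/db PIO than in db/db. All 10 genes tested had a higher mean in db/db PIO, with a median difference of 0.45 against 0.02 over all 3940 genes tested. The 5 genes that rose were Ndufb6, Ndufb10 and Ndufb5 of the distal membrane arm, Ndufc2 of the membrane arm and the assembly factor Ndufaf4. In this comparison 10.1% of all genes were called, 6.5% as higher. In 8 of the 10 genes the values of db/db and db/db PIO did not overlap, which held for 12.7% of all genes tested. With each 0 entered as a value, none of the 20 genes then tested passed, and under quantile normalization 2 of the 10 did.

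Ndufb6 was at 104, 111, 133, 89.6 and 100.4 FPKM in SCN db/db and at 262, 183, 204, 147 and 157 FPKM in SCN db/db PIO. The lowest treated value was above the highest untreated one, and the means were 107 ± 16.0 and 190.4 ± 45.9 FPKM (SD, n = 5 in both). The difference was 0.80 ± 0.15 (SE) on the log2(FPKM + 1) scale, a fold of 1.74 (adjusted p = 0.00359, limma with Benjamini-Hochberg adjustment). The db/+ values of Ndufb6 (95.4 to 112 FPKM, n = 5) lay within the range of db/db. Ndufc2, which lies where the arms of the complex meet, was at 117, 98.4, 98.8, 96.6 and 105 FPKM in db/db and ranged from 144 to 205 FPKM in the 6 db/db PIO libraries, with a median of 155 FPKM. Again the groups did not overlap (0.65 ± 0.13, adjusted p = 0.00305, limma). Ndufb10 had 3 values in each group, 128, 121 and 123 FPKM in db/db and 177, 167 and 165 FPKM in db/db PIO. The difference was 0.45 ± 0.10 (adjusted p = 0.0110, limma).

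Ndufb5 was at 49.9, 55.1, 53.7 and 51.2 FPKM in SCN db/db and at 76.8, 89.3, 65.97 and 61.2 FPKM in db/db PIO (0.46 ± 0.13, adjusted p = 0.0334, limma). Ndufaf4 ranged from 2.82 to 3.62 FPKM in the 6 db/db libraries, with a median of 3.15 FPKM, and was at 4.56, 3.91, 3.78 and 3.71 FPKM in db/db PIO (0.27 ± 0.08, adjusted p = 0.0454, limma). Both showed separate ranges at small differences. Leaving out single libraries of the tissue ended the call of Ndufaf4 in 12 of 24 fits and that of Ndufb5 in 5 of 24, while Ndufb6 and Ndufc2 kept it in all 24. Ndufb10 kept it in the 18 fits in which it could be tested, none of which left out one of its 3 values a group. The count of genes called fell to 2 without SCN db/db replicate 2 or 6 or SCN db/db PIO replicate 3, and to 3 without SCN db/db replicate 1 or 5 or db/db PIO replicate 2, 4 or 5. The genes that did not pass were Ndufa1 (0.51 ± 0.20), Ndufc1 (0.46 ± 0.16), Ndufb4 (0.40 ± 0.13), Ndufa2 (0.24 ± 0.11) and Ndufb7 (0.24 ± 0.11). Ndufa1, Ndufc1 and Ndufb4 had separate ranges, Ndufa1 with 142 to 166 FPKM against 176 to 286 FPKM. With the offset as a covariate, 4 of the 5 calls remained (Ndufb6 at 0.68, Ndufc2 at 0.55, Ndufb5 and Ndufb10), and Ndufaf4 had an adjusted p of 0.0529 in limma.

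**Figure D3:**
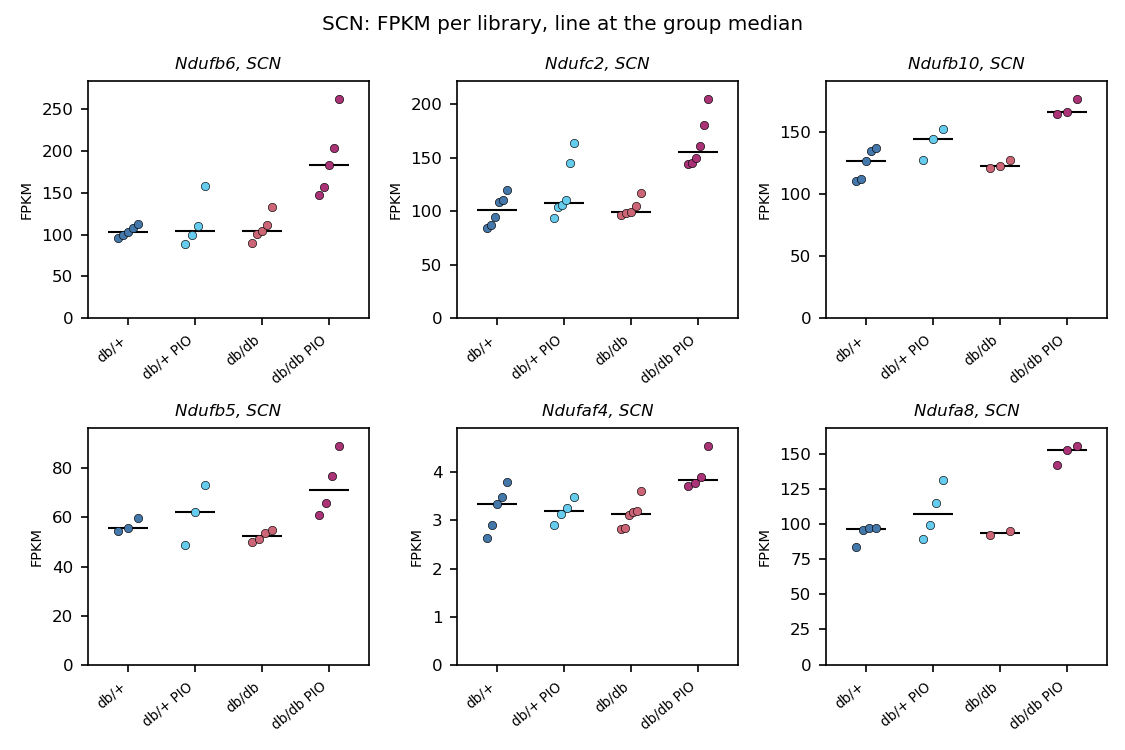
FPKM of Ndufb6, Ndufc2, Ndufb10, Ndufb5, Ndufaf4 and Ndufa8 in the SCN libraries with a value, by group, with each point a library and the line at the group median. In each of the first 5 panels the db/db PIO points lie above all db/db points, as Ndufb6 does with 147 to 262 against 89.6 to 133 FPKM.

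Genes listed as adipocyte markers rose in the same comparison, and their sums also had higher medians in DRG db/db PIO than in DRG db/db (below). In SCN the adipocyte gene Fabp4 was between 2428 and 8591 FPKM in db/db and between 7230 and 16830 FPKM in db/db PIO (1.44 ± 0.28, adjusted p = 0.00397, limma), and it was the only one of the 6 white adipocyte markers with a value in those groups, with Adipoq and Plin1 listed at 0 in all 12 libraries. The brown adipocyte markers Cox8b (3.77 ± 0.66) and Cidea (3.04 ± 0.63) rose in 2 of 2 tested, and the sum of the 6 brown adipocyte markers was 5.81 to 49.6 FPKM in db/db and 0.42 to 279 FPKM in db/db PIO. The 3 db/db PIO libraries with the highest Ndufc2, replicates 1, 3 and 2 at 205, 180 and 161 FPKM, were also the 3 with the highest Fabp4, at 16830, 13489 and 12363 FPKM. Between the groups, however, Fabp4 overlapped, at 8591 FPKM in db/db replicate 4 and 7230 FPKM in db/db PIO replicate 6. Ndufc2 did not, with at most 117 FPKM in db/db and at least 144 FPKM in db/db PIO. The brown adipocyte sum of db/db PIO replicate 1 was 1.11 FPKM, with 1 marker above 0. The sum of 10 skeletal muscle markers overlapped between the groups, at 14.5 to 292 and 16.4 to 510 FPKM. The sum of 7 macrophage markers reached 181 FPKM in db/db (median 76.9) and 726 FPKM in db/db PIO (median 331), where 4 of 6 libraries lay above every db/db library, and no macrophage marker had enough values for a test. No macrophage marker had a value in db/db replicates 1 and 2 or in db/db PIO replicate 4, whose sums are therefore 0. The part of these transcripts in the complex I result was not tested. In bulk tissue, more cells of a type and more RNA per cell cannot be told apart, and the cell type that made a transcript is not known.

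Other complexes of the respiratory chain moved in the same direction where they passed. Of 3 genes of complex III and cytochrome c tested in SCN db/db PIO against db/db, all 3 rose, namely Cycs, the cytochrome c gene (1.31 ± 0.23), Uqcrfs1, the Rieske iron-sulfur protein (0.79 ± 0.17), and Uqcrb (0.67 ± 0.18). Of complex IV, 1 of 4 rose (Cox5a, 0.60 ± 0.14), and of complexes II and V the 1 gene tested of each did not pass. Of 5 genes of mitochondrial content, Slc25a5, an ADP/ATP carrier (0.95 ± 0.18), and Phb2, a prohibitin (0.36 ± 0.11), rose. Of 3 regulators of mitochondrial biogenesis tested, Ppargc1b, which encodes PGC-1β, rose by 0.35 ± 0.10.

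In SCN no complex I gene was called for untreated diabetes, though other settings called some. Of 10 genes tested between db/+ and db/db, none passed and 2 had an unadjusted p under 0.05 (limma), where 14.9% of all genes were called, and 6 of the 10 were higher in db/db, with a median of 0.04. Ndufb7, an accessory subunit on the outer face of the membrane arm, was at 104 to 131 FPKM in db/+ (median 118, n = 6) and at 132 to 149 FPKM in db/db (median 138, n = 6). These ranges did not overlap, as was the case in 2 of the 10 genes and in 12% of all genes, and the difference of 0.24 ± 0.10 did not pass (adjusted p = 0.120, limma). Ndufa10 was at 34.8 to 41.7 FPKM in db/+ (n = 5) and at 42.5, 42.5 and 50.1 FPKM in db/db, also without overlap (0.22 ± 0.09, adjusted p = 0.138, limma). Ndufa2 had the third smallest p (0.21 ± 0.11). Under quantile normalization 4 of the 10 were called, and 1 was, Ndufb7, in a fit of only the 2 groups and with the offset as a covariate. The share of all genes called in these settings was not taken. Of the other complexes, 1 of 4 genes of complex IV rose (Cox6a1, 0.44 ± 0.12) and none of complexes II, III and V passed, with 1, 3 and 2 tested, while Ppargc1b rose by 0.35 ± 0.10 as 1 of 3 regulators.

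In mice without diabetes, pioglitazone was followed by no complex I call in SCN either, with 0 of 12 tested, 4 of them at an unadjusted p under 0.05 (limma), and 0.0778% of all genes called. Ndufa10 was at 53.0, 64.1 and 55.2 FPKM in db/+ PIO, above all 5 db/+ values (0.56 ± 0.09, adjusted p = 0.0519, limma), and was the only one of the 12 with separate ranges, against 3.4% of all genes. Ndufb7 (0.26 ± 0.11) and Ndufaf3 (0.25 ± 0.10) followed, and 11 of the 12 were higher in db/+ PIO. The brown adipocyte sum was 34.9 to 285 FPKM in db/+ PIO against 5.68 to 74.6 FPKM in db/+.

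Under pioglitazone, 4 of 10 complex I genes were higher in SCN of db/db than of db/+ mice, where 33.8% of all genes were called, 20.6% as higher, and all 10 differences were above 0 with a median of 0.26 against 0.05 over all genes. This comparison shares the db/db PIO libraries with the one above. Ndufb6 was at 88.8, 110.1, 158 and 99.6 FPKM in db/+ PIO, so that 1 of 4 values lay within the db/db PIO range (0.74 ± 0.16, adjusted p = 0.0021, limma). Ndufa8, an accessory subunit facing the intermembrane space, was at 131, 115, 99.6 and 89.1 FPKM in db/+ PIO and at 156, 152 and 142 FPKM in db/db PIO (0.47 ± 0.11, adjusted p = 0.00745, limma). Ndufc2 (0.46 ± 0.12) and Ndufaf4 (0.25 ± 0.09) were also higher. The count fell to 2 without db/db PIO replicate 3 or 5, rose to 6 without db/+ PIO replicate 3, was 7 with the offset as a covariate and was 0 with each 0 entered as a value. The share of all genes called was not taken for these counts. Values did not overlap in 3 of the 10 genes (Ndufa8, Ndufaf4 and Ndufb10) and in 25.8% of all genes. Of complex III 2 of 3 were higher (Cycs, 1.14 ± 0.23, and Uqcrfs1, 0.60 ± 0.17), of complex II 1 of 2 (Sdhd, 0.60 ± 0.17), and of the regulators Ppargc1b (0.42 ± 0.10) and Tfam, a factor of mitochondrial DNA (0.24 ± 0.07). Genes of other cell types moved in the same comparison. The macrophage genes Lyz2 (2.13) and C1qa (1.34) were higher in 2 of 2 tested and skeletal muscle genes in 2 of 5, and the myelin gene Mbp was lower by -0.26. Their part in the complex I differences was not tested.

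In DRG no complex I gene was called in any of the 4 comparisons. Between db/+ and db/db, 0 of 8 passed and 3 had an unadjusted p under 0.05 (limma), where 4.13% of all genes were called. In a fit of only these 2 groups 3 were called, Ndufa2, Ndufaf3 and Ndufc2, and the share of all genes called in that fit was not taken. Of the 8, 7 were higher in db/db, with a median of 0.22 against 0.01 over all genes, but with the offset as a covariate 3 were higher and the median was -0.01. Ndufa2 ranged from 139 to 171 FPKM in DRG db/+ (median 152, n = 6) and was at 243, 285, 196 and 178 FPKM in db/db. Its groups did not overlap, and the same held for Ndufaf3, at 18.9 to 22.5 FPKM in 4 db/+ libraries and at 25.1, 28.2, 24.0 and 23.8 FPKM in db/db. Separate ranges were found in 17.4% of all genes in this comparison. The differences were 0.53 ± 0.25 for Ndufa2 (adjusted p = 0.232, limma) and 0.26 ± 0.11 for Ndufaf3 (adjusted p = 0.196, limma). Without DRG db/db replicate 3, whose offset was 0.37, they were 0.41 and 0.21.

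Ndufc2 had the smallest p among the DRG genes in diabetes. It ranged from 166 to 180 FPKM in db/+ (median 171, n = 6) and was at 176, 199.5, 278, 211 and 205 FPKM in db/db, so that 1 db/db value lay within the db/+ range (0.29 ± 0.12, adjusted p = 0.178, limma). Ndufb6, which rose in SCN, was at 251, 245, 245 and 264 FPKM in DRG db/+ and at 246, 338, 269.5 and 257 FPKM in db/db (0.13 ± 0.12). Ndufaf4 was lower by -0.08 ± 0.07. The sum of skeletal muscle markers reached 673 FPKM in DRG db/db replicate 3, against at most 143 FPKM in db/+, and its part in these values was not tested.

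For pioglitazone in DRG of db/db mice, 0 of 7 complex I genes passed, none had an unadjusted p under 0.05 (limma), and 0% of all 3794 genes were called. Ndufb6 ranged from 248 to 317 FPKM in db/db PIO (median 262, n = 6), and its values overlapped with the 4 of db/db (-0.01 ± 0.11). Ndufc2 was at 198, 234, 189, 255 and 190.2 FPKM in db/db PIO, close to db/db in mean (213 ± 29.8 against 214 ± 38.2 FPKM, SD, n = 5 in both) with a difference of 0.00 ± 0.13. The smallest p values belonged to Ndufaf3 (-0.13 ± 0.11), Ndufa2 (-0.30 ± 0.26) and Ndufaf4 (-0.07 ± 0.06). Of the 7, 6 were below 0, but 5 of 7 under rescaling by medians of ratios and 3 of 7 under quantile normalization. The brown adipocyte sum was 21.3 to 29.7 FPKM in DRG db/db PIO and 3.24 to 20.4 FPKM in DRG db/db, without overlap. The white adipocyte sum was 25.8 to 187 FPKM (median 98.1) and 4.22 to 40.8 FPKM (median 6.22). The part of these transcripts was not tested.

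Between DRG db/+ and db/+ PIO, 0 of 9 passed with 1 at an unadjusted p under 0.05 (limma), and 0% of all genes were called. All 9 were higher in db/+ PIO (8 of 9 under rescaling by medians of ratios), but with the offset as a covariate 2 of 9 were, and without the libraries beyond 0.3 it was 1 of 8. The spread came from replicates 1 and 2, in which Ndufa2 was at 414 and 315 FPKM against 143 to 157 FPKM in the other 4, and Ndufb7 at 302 and 257 FPKM against 118 to 143 FPKM. The differences with the smallest p were 0.25 ± 0.10 for Ndufaf3, 0.40 ± 0.22 for Ndufa2 and 0.31 ± 0.22 for Ndufb7. Between DRG db/+ PIO and db/db PIO, 0 of 7 passed with 1 at an unadjusted p under 0.05 (limma), where 8.64% of all genes were called. Ndufaf4 was lower by -0.15 ± 0.06, with 6.88, 6.28, 6.46 and 6.89 FPKM against 4.97 to 6.81 FPKM (adjusted p = 0.167, limma). Ndufc2 was higher by 0.18 ± 0.13 and Ndufaf3 lower by -0.12 ± 0.10. Without the libraries beyond 0.3, which were replicates 1 and 2 of db/+ PIO here, Ndufc2 differed by 0.32 (adjusted p = 0.00987, limma).

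**Figure D4:**
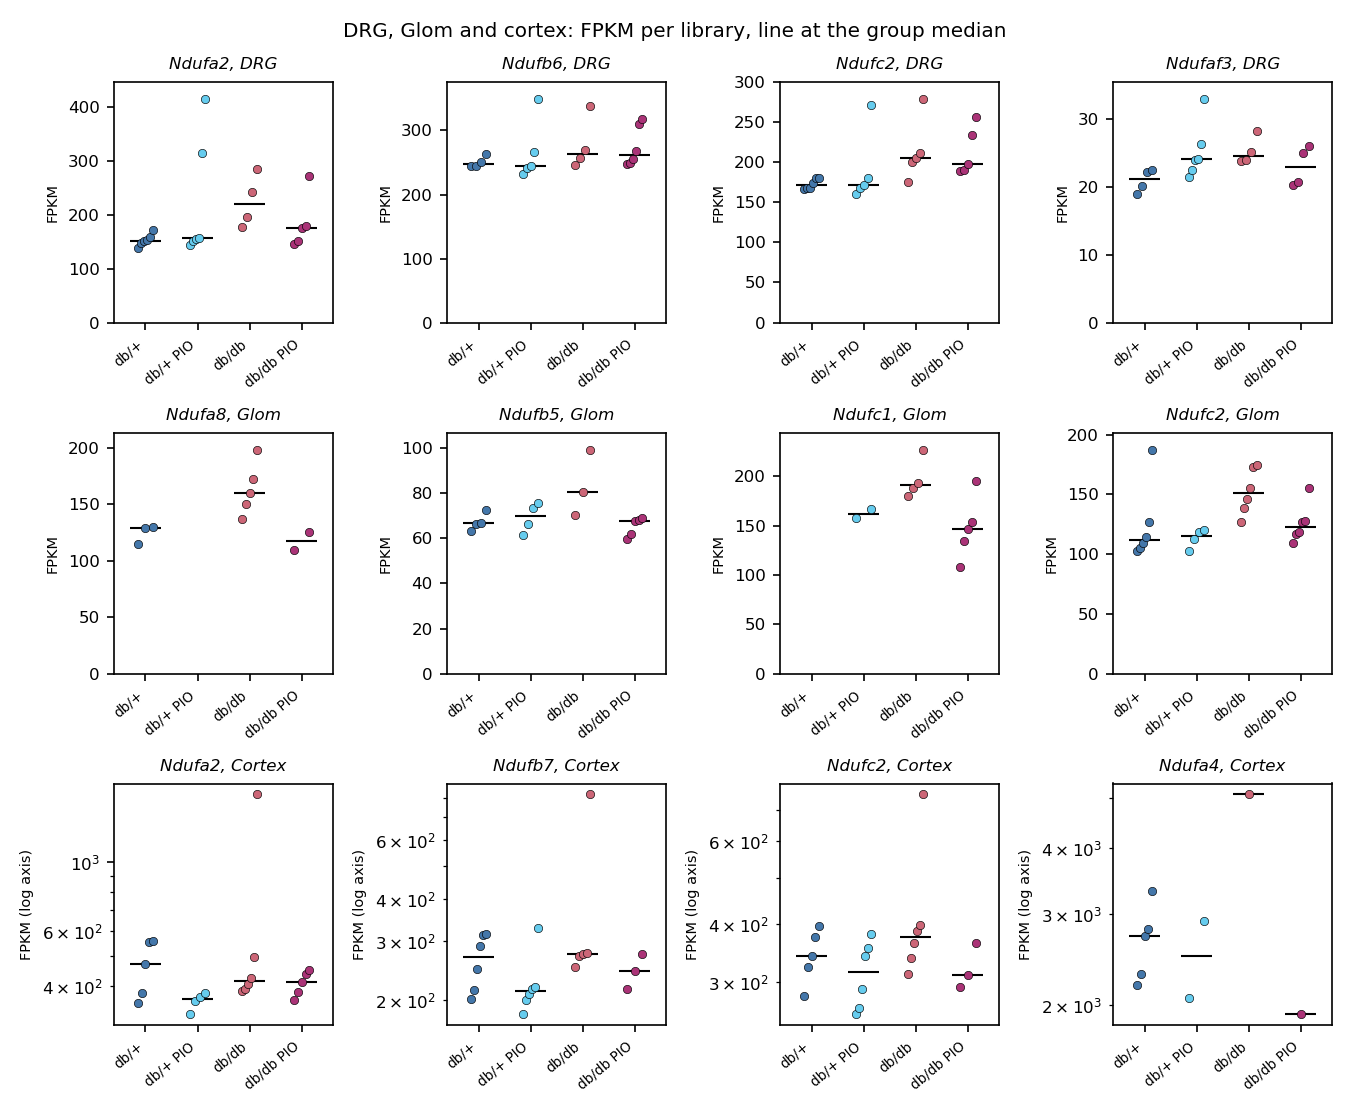
FPKM of 4 genes each in DRG (top), glomeruli (middle) and cortex (bottom, logarithmic axis) in the libraries with a value, by group, with each point a library and the line at the group median. In DRG the db/db points of Ndufa2 and Ndufaf3 lie above all db/+ points, in cortex db/db replicate 6 stands apart (1650 FPKM for Ndufa2), and in glomeruli Ndufa8 and Ndufb5 are highest in db/db.

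In glomeruli, the means of most complex I genes were higher in db/db than in db/+ and lower in db/db PIO than in db/db, but few passed the test, and none did in either comparison with each 0 entered as a value or under rescaling by medians of ratios. Between db/+ and db/db, 1 of 10 rose, where 25.4% of all genes were called, 16.5% as higher, and 9 of 10 were above 0 (7 of 10 under rescaling by medians of ratios), with a median of 0.20 against 0.04 over all genes. Ndufa8 was at 130, 115 and 130.0 FPKM in db/+ and at 172, 160.4, 198, 150.1 and 137 FPKM in db/db, and it was the only one of the 10 whose ranges were separate, against 17.4% of all genes. The difference was 0.38 ± 0.12 (adjusted p = 0.0379, limma). Ndufc2 ranged from 103 to 187 FPKM in db/+ (median 112, n = 6) and from 127 to 175 FPKM in db/db (median 151, n = 6), and the highest db/+ value, 187 FPKM, came from replicate 2 (0.32 ± 0.12, adjusted p = 0.0567, limma). Without that library, which held tubule transcripts, 7 complex I genes were called, but the share of all genes called in that fit was not taken. Ndufa8 lost its call without db/db replicate 1, 2 or 3, and had too few db/+ values for a test without db/+ replicate 1, 4 or 6. With the offset as a covariate the median was 0.01, 6 of 10 were above 0 and none passed, Ndufa8 standing at 0.16 (adjusted p = 0.302, limma). The offset itself differed between these groups, with a median of 0.12 in db/db and -0.01 in db/+. This fit therefore cannot tell the offset and the group fully apart.

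Between glomerular db/db and db/db PIO, 2 of 10 fell, where 23.1% of all genes were called, 15.9% as lower. All 10 were below 0 (7 of 10 under rescaling by medians of ratios), with a median of -0.26 against -0.04 over all genes. Ndufb5 was at 99.0, 80.5 and 70.5 FPKM in db/db and at 67.8, 68.3, 62.2, 69.0 and 59.7 FPKM in db/db PIO, without overlap (-0.33 ± 0.10, adjusted p = 0.0262, limma). Ndufc1, a small membrane arm subunit (mm9, chr3:51208599-51212910), was at 226, 194, 188 and 180.3 FPKM in db/db and at 195, 134, 146, 154 and 108 FPKM in db/db PIO, with 1 treated value within the untreated range (-0.44 ± 0.14, adjusted p = 0.0495, limma). Besides Ndufb5, only Ndufv3, an accessory subunit near the flavin site, had separate ranges (-0.32 ± 0.13), which makes 2 of 10 against 18.1% of all genes. The call of Ndufc1 was lost in 21 of 24 fits without a library and that of Ndufb5 in 1 of 21 (without db/db PIO replicate 6). Without db/+ replicate 2, 5 genes were called, and none was without db/db PIO replicate 6 or without db/db replicate 3, 5 or 6, where too few values of Ndufb5 were left. The share of all genes called in these fits was not taken. With the offset as a covariate the median was -0.03, 4 of 10 were above 0 and neither gene passed (Ndufb5 -0.14, Ndufc1 -0.22).

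Transcripts of distal nephron cells moved with both glomerular comparisons. All 5 distal nephron markers tested were higher in db/db than in db/+ (median 2.71) and all 5 lower in db/db PIO than in db/db (median -2.90), among them S100g, which binds calcium (3.56 and -4.16), and Foxi1, a factor of intercalated cells (2.71 and -2.90). The sum of the 11 markers was 27.2 to 236 FPKM in db/+, 64.1 to 524 FPKM in db/db and 16.4 to 41.9 FPKM in db/db PIO. Ndufa8 was highest in db/db replicates 3 and 1 (198 and 172 FPKM), and these libraries also held the highest distal nephron sums (497 and 524 FPKM). Macrophage and proximal tubule transcripts moved as well. The sum of 7 macrophage markers was 32.8 to 158 FPKM in db/+, 50.3 to 220 FPKM in db/db and 6.66 to 48.9 FPKM in db/db PIO, and 1 of 3 tested rose in db/db and 3 of 4 fell in db/db PIO. The median sum of 11 proximal tubule markers was 189 FPKM in db/db and 90.6 FPKM in db/db PIO, with 1 of 5 tested lower. The part of all these transcripts was not tested. Uqcrfs1 and Uqcrc1 of complex III rose in db/db (0.51 and 0.43) in 2 of 4 tested, Atp5b of complex V in 1 of 3 (0.57), and 4 of 7 genes of mitochondrial content rose, Slc25a5 the most (0.82). In db/db PIO, Uqcrfs1 (-0.61) and Cycs (-0.53) fell in 2 of 3, Cox8a (-0.43) and Atp5e (-0.44) fell as the only genes of complexes IV and V tested, and of 6 genes of mitochondrial content 2 fell and 1 rose.

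Neither other glomerular comparison held a call. Between db/+ and db/+ PIO, 0 of 10 passed and none had an unadjusted p under 0.05 (limma), with 0% of all genes called, and the differences lay between -0.15 (Ndufv3) and 0.04 (Ndufb5). Between db/+ PIO and db/db PIO, 0 of 9 passed and none had an unadjusted p under 0.05 (limma), where 8.41% of all genes were called. Ndufa2 differed by 0.13 ± 0.09, Ndufc2 by 0.14 ± 0.13 and Ndufv3 by -0.12 ± 0.14.

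In cortex no complex I gene was called in any of the 4 comparisons, and 1 library lay far from the others in several genes. Between db/+ and db/db, 0 of 6 passed and none had an unadjusted p under 0.05 (limma), where 10.3% of all genes were called. All 6 were above 0, with a median of 0.21 against 0.00 over all genes (5 of 6 under rescaling by medians of ratios and 3 of 6 under quantile normalization). Ndufb7 ranged from 202 to 313 FPKM in db/+ (median 268, n = 6) and was at 275, 271, 274, 249.8 and 817 FPKM in db/db. The value of 817 FPKM came from replicate 6, and the other 4 lay within the db/+ range (0.37 ± 0.24, adjusted p = 0.421, limma). Ndufc2 was at 375, 280, 323, 396 and 341 FPKM in db/+ and from 313 to 754 FPKM in db/db (median 374, n = 6), the highest again in replicate 6 (0.25 ± 0.18). Ndufaf3 differed by 0.13 ± 0.15. Without replicate 6 the differences were 0.04 for Ndufb7, 0.07 for Ndufc2 and -0.00 for Ndufaf3.

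Ndufa2 in cortex was at 555, 381, 353, 560 and 471 FPKM in db/+ and ranged from 385 to 1650 FPKM in db/db, with a median of 416 FPKM below the db/+ median of 471 FPKM. Its mean difference of 0.21 ± 0.28 was of the opposite sign to the difference of the medians. Ndufa1 was at 596, 621 and 924 FPKM in db/+ and at 544, 575, 649 and 2156 FPKM in db/db, the last in replicate 6 (0.22 ± 0.40). Ndufb6, with 451 ± 79.9 FPKM in db/+ (SD, n = 5), had only 2 values in db/db (446 and 535 FPKM) and was not tested. With the offset as a covariate, in which replicate 6 enters at 1.96, Ndufb7 differed by 0.23 and passed (adjusted p = 0.0263, limma).

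For pioglitazone in cortex of db/db mice, 0 of 6 passed and none had an unadjusted p under 0.05 (limma), where 3.24% of all genes were called. All 6 were below 0, also under both rescalings, with a median of -0.35 against -0.05 over all genes, and with the offset as a covariate all 6 remained below 0 with a median of -0.07. Ndufa1 was at 530.0, 435, 475 and 481 FPKM in db/db PIO, below all 4 db/db values (-0.76 ± 0.37, adjusted p = 0.259, limma), and was the only one of the 6 with separate ranges, against 10% of all genes. Ndufc2 was at 311, 293 and 364 FPKM in db/db PIO, with 2 of these 3 below the lowest db/db value of 313 FPKM (-0.34 ± 0.21). Ndufaf3 was at 20.6, 22.7 and 22.02 FPKM against 22.3 to 38.5 FPKM in db/db (-0.26 ± 0.17). Without db/db replicate 6 the differences were smaller, at -0.30 for Ndufa1, -0.16 for Ndufc2 and -0.13 for Ndufaf3.

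Between cortex db/+ and db/+ PIO, 0 of 4 passed and none had an unadjusted p under 0.05 (limma), with 0.025% of all genes called. Ndufa2 was at 368, 379, 359 and 326 FPKM in db/+ PIO, within or below the db/+ range (-0.35 ± 0.30), Ndufb7 differed by -0.23 ± 0.23 and Ndufc2 by -0.13 ± 0.18. Under quantile normalization these 3 changed sign. Between cortex db/+ PIO and db/db PIO, 0 of 4 passed and none had an unadjusted p under 0.05 (limma), where 19.7% of all genes were called. Ndufa2 (0.19 ± 0.30), Ndufb7 (0.14 ± 0.28) and Ndufaf3 (-0.14 ± 0.17) had the smallest p. With the offset as a covariate Ndufb7 differed by 0.31 (adjusted p = 0.00698, limma). In that comparison Ppargc1b (0.51 ± 0.17) rose, as did the ADP/ATP carrier Slc25a4 (0.52 ± 0.12), and in no comparison of DRG or cortex did a gene of complexes II to V pass.

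**Figure D5:**
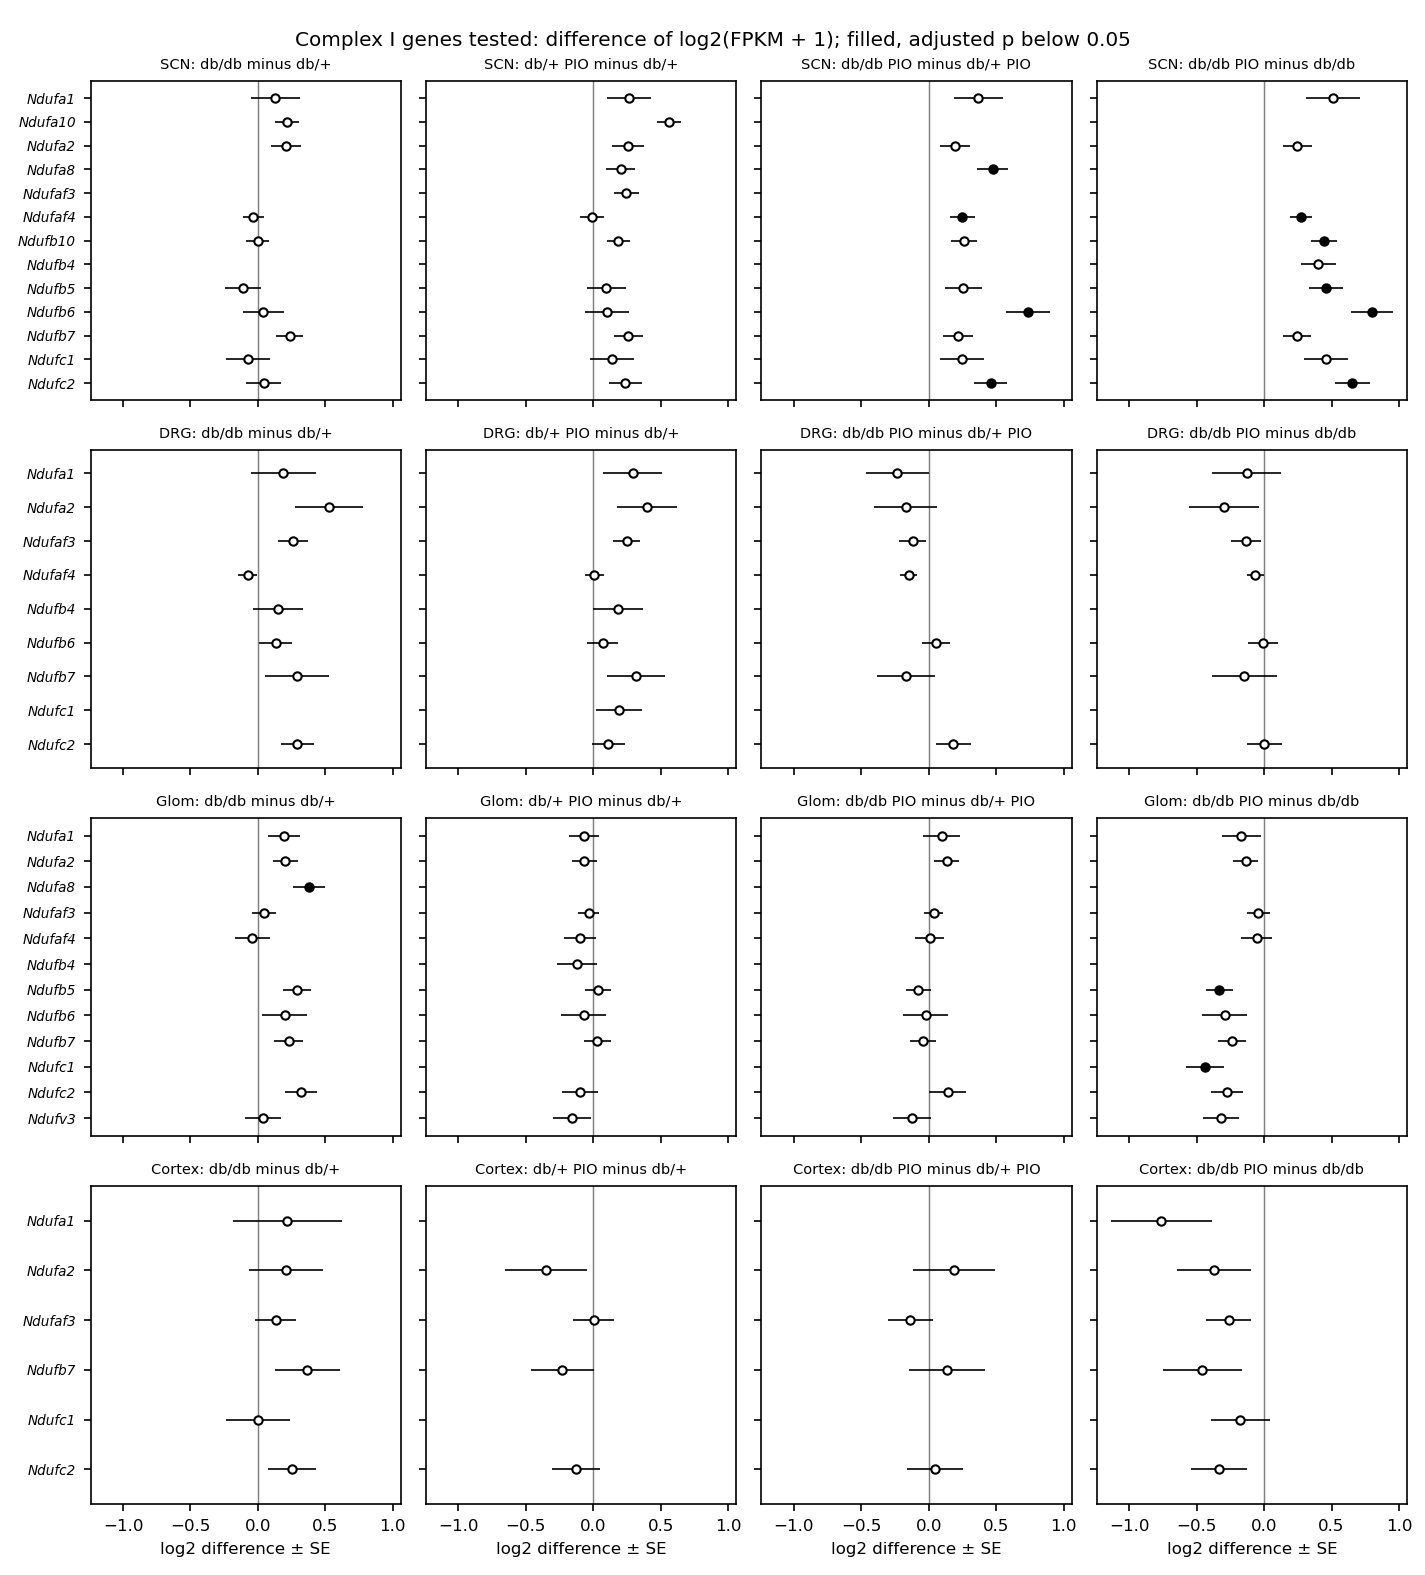
Differences between groups (log2, with bars of ± 1 SE) of the complex I genes tested in each of the 4 comparisons (columns) in each of the 4 tissues (rows), with filled points where the adjusted p was under 0.05. Filled points lie in SCN, 5 for pioglitazone in db/db and 4 for diabetes under pioglitazone, and in glomeruli, 1 for diabetes and 2 for pioglitazone in db/db.

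Whether the tissues differed in their response was tested directly in a fit of all 16 groups. The tissues came from the same groups of mice, but the labels do not tie the libraries of 1 animal across tissues, so the fit took all libraries as independent, here and for the levels in db/+ mice. The pioglitazone difference in db/db mice was lower in DRG than in SCN for Ndufb6, by -0.81 ± 0.21 (adjusted p = 0.0126, limma), which was 1 of 6 genes tested where 3.84% of all genes were called, 2.95% as lower. All 6 were below 0 (5 of 6 under quantile normalization), with a median of -0.59. Ndufc2 (-0.65 ± 0.21, adjusted p = 0.0619, limma) and Ndufaf4 (-0.34 ± 0.12, adjusted p = 0.0943, limma) followed. Against glomeruli, a contrast added after the values were seen, the same difference was lower than in SCN for Ndufb6 (-1.09 ± 0.21), Ndufc2 (-0.93 ± 0.20), Ndufc1 (-0.90 ± 0.24) and Ndufb5 (-0.79 ± 0.16), 4 of 8 genes where 20.7% of all genes were called, 15.8% as lower. Their adjusted p in limma ranged from 9.08e-05 to 0.0052. All 8 were below 0, also under both rescalings. With each 0 entered as a value none passed in either contrast, and Ndufb6 then differed between SCN and DRG by 0.94, in the other direction.

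Diabetes and pioglitazone were not shown to act differently on complex I genes in cortex and glomeruli. For pioglitazone in db/db mice, 0 of 6 passed with none at an unadjusted p under 0.05 (limma), where 14.5% of all genes were called, and Ndufa1 differed most (cortex minus glomeruli -0.59 ± 0.36). For diabetes, 0 of 5 passed between glomeruli and cortex, where 15.5% were called, and 0 of 6 between SCN and DRG, where 5.42% were called, with none at an unadjusted p under 0.05 in either (limma). The standard errors for diabetes were 0.18 to 0.35 between glomeruli and cortex and 0.12 to 0.33 between SCN and DRG, so that differences of that size were not detectable here.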

How the data were processed

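The authors aligned paired-end reads with TopHat and Bowtie to NCBI 37 (mm9) and calculated FPKM with Cufflinks, and the deposited files give 1 FPKM per gene symbol and library to 2 decimals. No program version was given in the sources read. Cuffdiff, with which the authors called DEGs, needs the alignments and was not repeated.

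An exact 0 was taken as missing, except in the sums of marker genes, where it added nothing. These sums therefore also depend on which markers had a value. Differences between groups were fitted to log2(FPKM + 1) with limma 3.58.1 (R 4.3.3), taking the 4 groups of each tissue together, with moderated variances and an intensity trend. A gene was kept if 5 or more libraries of its tissue reached 1 FPKM, and was tested if both groups compared held 3 or more values. Fold changes on this scale understate those of low genes. Adjusted p-values are Benjamini-Hochberg values over all genes tested, with a threshold of 0.05. Tissues were compared in a fit of all 16 groups, as the second tissue minus the first, with values in at least 3 libraries of every group. There were 16 comparisons within and 7 between tissues. Comparisons that share a group share its libraries. Ranges were called separate when no value of a group lay within those of the other. Transcript lengths came from GENCODE vM1 and promoters from RefSeq. Tables and plots used Python 3.11.15, numpy 2.4.6, pandas 2.3.3 and matplotlib 3.10.9. The fit was tested on simulated data.

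The complex I genes, the other gene lists and the tests were chosen with earlier results of these data known. Genes named are core subunits, Ndufa4, Ndufa4l2 and the assembly factors with values, the genes called in each comparison or, with none called, the 3 with the smallest unadjusted p, and of other lists at most 3 called genes with the largest change. Further genes named for their values (such as Ndufb6 and Ndufa1 where not called) were chosen after the values were seen. Some genes that the rule covers are not reported here. The alternatives were each 0 as a value, a pseudocount of 0.1, no filter, medians of ratios, quantile normalization, 2 groups in a fit, the replicate block, at least 5 values per group and each library left out. The share of all genes called was taken in the main setting only. The offset as a covariate, the omission of libraries with an offset beyond 0.3 and the contrast of SCN with glomeruli were added after the data were seen.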

Additional observations from a re-analysis of the deposited data

Results flagged for a closer look

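The pioglitazone difference of db/db mice differed between tissues by a test of that difference. Against SCN, it was lower in DRG for Ndufb6 (-0.81), and lower in glomeruli for Ndufb5 (-0.79), Ndufb6 (-1.09), Ndufc1 (-0.90) and Ndufc2 (-0.93), all on the log2 scale. Of all genes, 3.84% were called in the contrast with DRG and 20.7% in that with glomeruli, which was added after the values were seen. With each 0 entered as a value none of these genes passed. Ndufb6 against DRG, and Ndufb5 and Ndufc1 against glomeruli, then changed sign.

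A value far from the rest of its group was found in 14 of 118 sets of 4 to 6 values of a gene in a group (11.9%). Chance gives about 1 in 20 for independent sets of normal values. These sets share libraries, so the 14 values are not independent. In cortex db/db replicate 6, whose offset of short transcripts was 1.96, Ndufa1 was at 2156 FPKM against 544 to 649 FPKM in the others, Ndufa2 at 1650 against 385 to 496 FPKM, Ndufb7 at 817 against 249.8 to 275 FPKM and Ndufc2 at 754 against 313 to 398 FPKM. In cortex db/+ PIO replicate 6, with an offset of 0.56, Ndufb7 was at 327 FPKM against 182 to 218 FPKM. In Glom db/+ replicate 2, which held tubule transcripts, Ndufa2 was at 221 against 155 to 178 FPKM, Ndufb6 at 233 against 111 to 127 FPKM and Ndufc2 at 187 against 103 to 127 FPKM. In DRG db/+ PIO replicate 2, with an offset of 0.45, Ndufb4 was at 192 against 105 to 112 FPKM and Ndufc2 at 271 against 161 to 179 FPKM. The part of the offset and of the tubule transcripts in these values was not tested.

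Single values also stood apart for Ndufa1 in Glom db/db replicate 6 (223 FPKM against 292 to 316 FPKM), Ndufa2 in DRG db/db PIO replicate 5 (272 against 146 to 178 FPKM), Ndufa2 in Glom db/+ PIO replicate 2 (176.0 against 165 to 168 FPKM) and Ndufa8 in SCN db/+ replicate 6 (83.9 against 95.8 to 97.3 FPKM).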

How the results depend on the processing

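Values in this paragraph are counts of complex I genes called. The share of all genes called was not taken in these settings, so the counts cannot be set against it. With each 0 entered as a value, 0 were called in every comparison that had a call, namely in SCN for diabetes under pioglitazone and for pioglitazone in db/db, in glomeruli for diabetes and for pioglitazone in db/db, for pioglitazone in SCN against DRG and against glomeruli, and for both contrasts of db/+ levels. Where every group had to hold 5 or more values, the counts were 1 in SCN for diabetes under pioglitazone, 2 in SCN and 0 in glomeruli for pioglitazone in db/db, 0 for glomerular diabetes, 0 for pioglitazone in SCN against DRG, 1 for SCN against glomeruli, and 3 and 2 for levels of SCN against DRG and glomeruli against cortex, since fewer genes could be tested. Quantile normalization, which shifted the all-gene median by 0.51 for diabetes in SCN, gave 4 there, 2 in SCN and 0 in glomeruli for pioglitazone in db/db, 1 for diabetes in SCN against DRG and 0 for pioglitazone in SCN against DRG. Medians of ratios gave 0 and 0 in the glomerular comparisons and 10 for levels of SCN against DRG. With only the 2 groups compared in a fit, the counts were 1 for diabetes in SCN, 3 in DRG and 0 in glomeruli, and 0 for pioglitazone in glomeruli of db/db. Without the filter they were 3 in SCN and 1 in glomeruli for pioglitazone in db/db and 0 for glomerular diabetes, and with a pseudocount of 0.1 the glomerular count was 1. With the offset as a covariate, they were 1 for diabetes in SCN, 0 in glomeruli and 1 in cortex, 7 in SCN, 2 in DRG and 1 in cortex for diabetes under pioglitazone, and 0 in glomeruli and 2 in SCN against DRG for pioglitazone. Without the libraries with an offset beyond 0.3, they were 1 in DRG for diabetes under pioglitazone, 2 for pioglitazone in SCN against DRG and 8 for SCN against glomeruli. The cause of these shifts was not tested.

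Leaving out single libraries gave 0 to 1 for pioglitazone in SCN of db/+, 2 to 6 for diabetes under pioglitazone and for pioglitazone in db/db in SCN, 0 to 7 for diabetes and 0 to 5 for pioglitazone in db/db in glomeruli, and 0 throughout in DRG and cortex. The single call in SCN of db/+ appeared without db/+ replicate 6, db/+ PIO replicate 1 or 6, or db/db PIO replicate 6. Contrasts between tissues were not run without single libraries. Ndufaf3 in cortex diabetes ranged from -0.00056 to 0.20, and Ndufaf4 in glomeruli of db/+ with pioglitazone from -0.17 to 0.0033. Same-numbered libraries did not all deviate together, with a correlation over 0.1 in 10 of 36 SCN pairs, 15 of 33 DRG pairs, 20 of 36 glomerular pairs and 11 of 36 cortex pairs (median 0.12 in glomeruli, against -0.01 between other numbers), so the numbers were not taken as pairs. The replicate block gave 2 calls in SCN for pioglitazone in db/db and 3 for glomerular diabetes.

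Single genes changed sign in the following settings, with log2 differences given. With each 0 entered as a value, in SCN these were Ndufa10 for diabetes (-1.66), Ndufa10 (-1.49) and Ndufb7 (-0.93) for pioglitazone in db/+, Ndufa8 (-0.89) for diabetes under pioglitazone and Ndufaf4 (-0.50) for pioglitazone in db/db. In DRG they were Ndufa2 (-1.03) for diabetes, Ndufaf4 (0.83) for diabetes under pioglitazone, and Ndufa2 (0.0098) and Ndufaf4 (0.50) for pioglitazone in db/db. In kidney they were Ndufaf4 (0.40) for pioglitazone in db/+ and Ndufb5 (1.85) and Ndufc1 (0.91) in db/db in glomeruli, and in cortex Ndufb7 for diabetes (-1.03) and diabetes under pioglitazone (-3.83) and Ndufc2 (1.27) for pioglitazone in db/+. Between tissues they were Ndufa2 (-2.45) for diabetes in SCN against DRG, Ndufc2 (1.34) for diabetes in glomeruli against cortex, and for pioglitazone Ndufb6 (0.94) in SCN against DRG, Ndufa1 (2.29) in glomeruli against cortex, and Ndufb5 (1.54) and Ndufc1 (0.52) in SCN against glomeruli. For db/+ levels they were Ndufa1 (-0.62), Ndufb6 (-0.27) and Ndufc1 (-2.09) in SCN against DRG and Ndufa1 (-3.23) and Ndufa2 (-0.10) in glomeruli against cortex. Under quantile normalization they were, in DRG, Ndufaf4 (0.0075) and Ndufaf3 (0.030) for diabetes under pioglitazone and Ndufaf3 (0.0062) and Ndufaf4 (0.12) for pioglitazone in db/db, and in cortex Ndufc2 (-0.015) for diabetes, Ndufa2 (0.089), Ndufb7 (0.083) and Ndufc2 (0.16) for pioglitazone in db/+, and Ndufa2 (-0.55) and Ndufb7 (-0.21) for diabetes under pioglitazone. For diabetes between tissues, it turned Ndufc2 (-0.052) and Ndufb6 (-0.23) in SCN against DRG and Ndufb7 (-0.16) in glomeruli against cortex. The offset as a covariate turned Ndufb7 (-0.015) for pioglitazone in DRG of db/+ and Ndufb6 (-0.082) for diabetes in SCN against DRG. Leaving out the offset libraries turned Ndufa2 (-0.015) and Ndufb7 (-0.055) for pioglitazone in DRG of db/+, Ndufb6 (-0.0062) for diabetes in SCN against DRG and Ndufb7 (-0.048) in glomeruli against cortex.

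Read depth per library was not used here, so precision is limited by how many libraries gave a value. On simulated data, a 1.5-fold change was recovered in 82% of changed genes for diabetes in SCN and in 54% for diabetes in cortex. For the smallest change simulated, the shares were 36% in SCN and 18% in cortex. The folds of the complex I genes for diabetes were 0.93 to 1.18 in SCN and 1.00 to 1.29 in cortex. All were smaller changes than 1.5-fold, so many changes of their size would be missed.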
